A study of Mus musculus and Rattus norvegicus with 53 samples.

Results

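The 43 genes described here code for the actin cytoskeleton and its adhesion sites: the actins, the proteins that cross-link, sever, cap and move actin filaments, and the adaptors that tie filaments to focal adhesions and to the plasma membrane. They were chosen by symbol from the 24016 genes listed for each mouse library. No rule used their measured values, but earlier results of these data were known. All 43 were listed and all passed the low-count filters of both experiments. The cells were tdTomato+ cells sorted from sciatic nerves of mice aged 6 to 8 weeks that carried a Cre transgene active in Schwann cells (SCs) and a Rosa26 tdTomato reporter, so that tdTomato follows past activity of that Cre. The sciatic nerve of 1 side was fully transected, and cells were taken from the contralateral intact nerve (iSCs), from the distal stump (dSCs) and from the nerve bridge, the new tissue that joins the cut ends (bSCs). In the first experiment each library held cells pooled from 3 nerves, with 4 libraries of iSCs, 4 of dSCs and 4 of bSCs, the injured groups at 6 days. In the second experiment each library came from 1 nerve: 5 libraries of iSCs, 3 of dSCs for each of days 1 and 2, and 3 of dSCs and 3 of bSCs for each of days 4, 6, 8 and 10. Every group, intact nerves included, carried the Cre and the reporter, and the iSCs came from operated animals, so that no library stands for an uninjured mouse.

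Actin filaments grow from monomers that profilin delivers and thymosin beta sequesters, branch at the Arp2/3 complex, are severed by cofilin, and are bundled and pulled by cross-linkers, tropomyosins and myosin II. Focal adhesions couple these filaments to integrins, and ezrin, moesin and radixin (the ERM proteins) couple them to the membrane. Many of these genes are transcribed under serum response factor (SRF), which binds the CArG box and whose co-activators respond to the monomer pool. After transection SCs dedifferentiate, and those entering the bridge change shape and migrate along new vessels.

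The CArG box is shown because it is the letter pattern that SRF binds and the choice by symbol did not use it. Of the 43 genes, 40 had a RefSeq promoter window (250 bases before to 50 after the annotated start, GRCm38.p6), and 5 of these 40 symbols (12.5%) held the box, against 488 of 27025 symbols over all promoters (1.81%). Each stretch is 30 bases, 5′ to 3′ on the strand of the gene, with the box in capitals.
Actg1: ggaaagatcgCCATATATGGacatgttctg
Cnn2: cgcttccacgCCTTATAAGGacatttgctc
Myl6: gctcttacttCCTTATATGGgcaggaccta
Myl9: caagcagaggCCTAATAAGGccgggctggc
Vcl: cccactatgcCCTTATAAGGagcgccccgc

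The boxes start 90 bases upstream of the annotated start of Actg1 (chr11:120348566-120348595, minus strand), 56 bases upstream for Cnn2 (chr10:79988534-79988563, plus), 50 for Myl6 (chr10:128493040-128493069, minus), 161 for Myl9 (chr2:156775293-156775322, plus) and 227 for Vcl (chr14:20929161-20929190, plus). The pattern reads as a CArG box on both strands. A match is a match of letters and not a measured binding site. Actb, Pxn and Ptk2 had no window.

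The pooled libraries held 11435463 to 22617054 gene counts (median 13527755) and the single-nerve libraries 9240883 to 22426128 (median 13149913). In 3 single-nerve libraries (intact replicates 0 and 1 and distal day 2 replicate 0) the TMM scaling factor lay under 0.6 and 10042 to 10572 genes were detected, and values without them are given where they moved a result. SC markers were detected in every pooled library, with a summed level of 10284 to 25880 CPM (counts scaled to a common library total) in iSCs, 1641 to 5561 in dSCs and 1460 to 4335 in bSCs. Macrophage markers (17 genes) summed to 282 to 7169 CPM in iSCs, 11909 to 19795 in dSCs and 2890 to 9365 in bSCs, and fibroblast and perineurial markers (9 genes) to 6138 to 29366, 16461 to 26007 and 1262 to 5338. The sorted libraries thus held transcripts of other cell types' markers, and fewer cells of a type and less RNA per cell cannot be told apart here.

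Taken as a group, the 43 genes drew 1.95% ± 0.243 of all gene counts in pooled iSCs (SD, n = 4), 2.79% ± 0.322 in dSCs and 5.28% ± 0.938 in bSCs. This share is a sum in which the most highly expressed genes weigh most. Over the pooled libraries the mean was 12983 CPM for Actb, the highest of the 43, and 283 CPM for the median member. The highest iSC library (2.30%) lay below the lowest dSC library (2.35%), and the highest dSC library (3.10%) below the lowest bSC library (4.02%). In the single nerves the share was 1.77% ± 0.627 in iSCs (SD, n = 5). The mean share was 3.27% ± 0.478 in dSCs on day 1 and 2.09% ± 0.317 on day 8, and between these values on days 2, 4, 6 and 10 (SD, n = 3 each). In bSCs it was 3.12% ± 0.319 on day 4, 2.85% ± 0.999 on day 6, 2.93% ± 0.513 on day 8 and 4.04% ± 0.762 on day 10 (SD, n = 3 each).

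**Figure D1:**
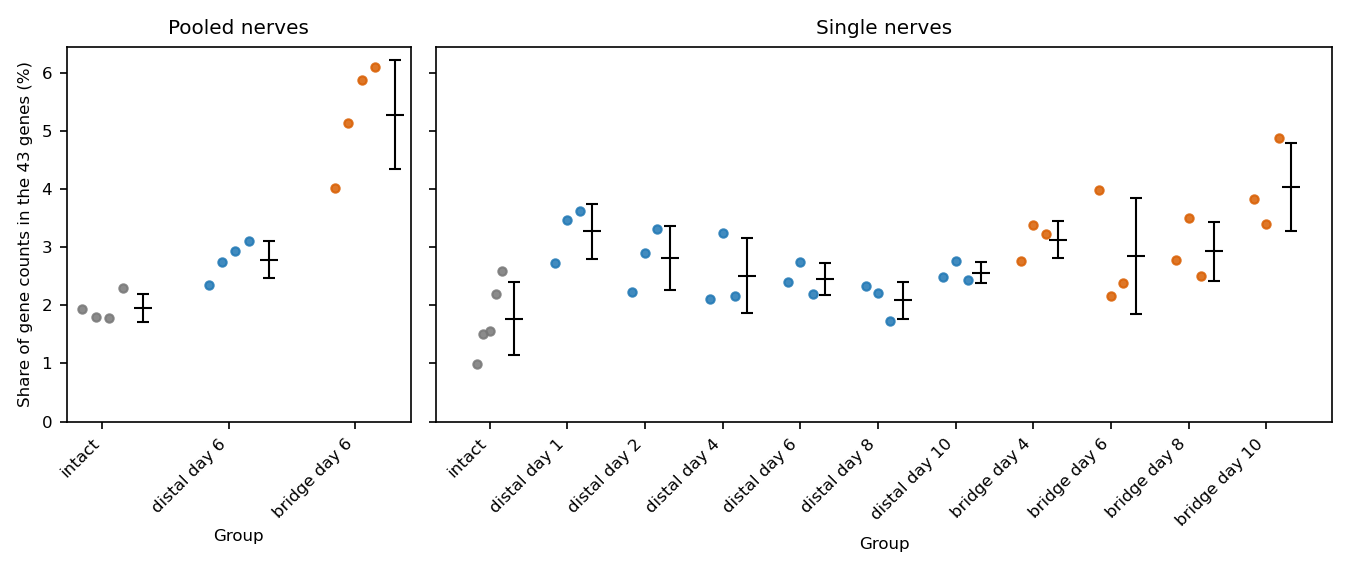
Share of all gene counts that fell on the 43 genes (percent, vertical axis) in each library of the pooled nerves (left) and single nerves (right), with the group mean and SD as a bar. In the pooled nerves the 3 groups do not overlap; in the single nerves bridge and distal libraries overlap on days 4 and 6 and not on days 8 and 10.

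Levels between genes were compared only per length, as CPM per kilobase of annotated exon. Actb, the cytoplasmic beta-actin, was the first of the 43 in each pooled group, at 2379 ± 503 CPM per kilobase in iSCs, 4615 ± 1295 in dSCs and 7545 ± 1556 in bSCs (SD, n = 4). Tmsb4x, the monomer-sequestering thymosin beta 4, was second in each group, at 807 ± 346, 2019 ± 236 and 4576 ± 1310. Cnn3, an acidic calponin, was the fourth in iSCs at 675 ± 250 and the eighth in bSCs at 611 ± 158.

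The comparison of dSCs with iSCs asked how these genes stood in cells that had lost axonal contact but stayed in the old nerve. Of the 43 genes, 2 rose (Tmsb4x and Pfn1) and 2 fell (Cnn3 and Myl9) in dSCs at an adjusted p under 0.05 (edgeR quasi-likelihood test, Benjamini-Hochberg over 13751 genes), where 5.32% of all tested genes passed, 2.63% as higher and 2.69% as lower. Fold changes were above 0 for 30 of the 43, with a median log2 fold change of 0.35 against -0.02 over all genes. The libraries of dSCs and iSCs did not overlap for 6 genes higher and 3 lower in dSCs, against a background of 7.56% and 9.41% of all genes. At or above the median level of the 43, 2 of 22 members rose (9.09%) and 1 fell. Of all 503 genes at or above that level, 17.7% rose and 11.1% fell, so the rising share of the 43 was the smaller one.

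Tmsb4x read 986, 731, 908 and 1799 CPM in iSC replicates 1, 2, 4 and 5 and 2546, 3241, 2719 and 2568 CPM in dSC replicates 1, 2, 3 and 5. Every dSC library lay above every iSC library, and the log2 fold change was 1.32 ± 0.32 (SE, adjusted p = 0.0312). Pfn1, which codes for profilin 1 and feeds monomers to growing ends, read 301, 281, 341 and 608 CPM in iSCs and 760, 1134, 1009 and 686 in dSCs. It too did not overlap, at 1.23 ± 0.30 (adjusted p = 0.0303). Cnn3 read 1464, 1965, 1207 and 769 CPM in iSCs and 378, 574, 684 and 372 in dSCs. All dSC libraries lay lower, by a log2 fold change of -1.43 ± 0.32 (adjusted p = 0.0229). Myl9, a regulatory light chain of myosin II that is abundant in smooth muscle, read 619, 308, 342 and 221 CPM in iSCs and 63.6, 151, 149 and 55.4 in dSCs, a difference of -1.83 ± 0.45 (adjusted p = 0.0343). Mural and smooth muscle markers (13 genes) summed to 444 to 2165 CPM in iSCs and 270 to 367 in dSCs, and their part in the Myl9 difference was not tested.

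Tpm4, a non-muscle tropomyosin, read 357, 311, 514 and 466 CPM in iSCs and 869, 851, 1053 and 498 in dSCs, where the groups overlapped in 1 dSC library (0.99 ± 0.27, adjusted p = 0.0529). Ptk2, focal adhesion kinase, read 108, 170, 79.8 and 65.7 CPM in iSCs and 48.3, 62.7, 35.6 and 39.8 in dSCs. It lay lower in every dSC library without passing the test (-1.18 ± 0.35, adjusted p = 0.0751). By role, all 4 Arp2/3 subunits and both actins had values above 0 and none passed, and the 9 focal adhesion genes had a median of 0.03.

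These 4 calls were not stable. Intact and injured libraries shared 3 pool numbers, so a fit with pools as a replicate block compared them within 3 pools only. With pools as a replicate block none of them passed (adjusted p = 0.0854 for Cnn3, 0.134 for Pfn1, 0.159 for Tmsb4x and 0.213 for Myl9), and 1 other gene did, Cap1, a cofilin partner in filament turnover, which was lower in dSCs (-2.17 ± 0.37, adjusted p = 0.0226). The count was 0 without iSC replicate 1, iSC replicate 2, dSC replicate 1 or dSC replicate 2, it was 1 without iSC replicate 4, 2 without dSC replicate 3 or 5, and 11 without iSC replicate 5. That last library held the most macrophage marker signal of the iSCs (7169 CPM) and the highest iSC values of Tmsb4x, Pfn1 and Tagln2. It also held the most fibroblast and perineurial marker signal (29366 CPM) and the least SC marker signal (10284 CPM) of the iSCs. The part of these markers in the counts was not tested. Beside these counts no share of all genes is given.

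The comparison of bSCs with iSCs, which sets the new tissue against the uncut nerve, held the most calls of the 3 pooled comparisons. Of the 43 genes, 21 rose in bSCs and none fell (48.8%, where 14.7% of all genes passed, 7.24% as higher and 7.46% as lower), and 37 lay above 0. The median log2 fold change was 1.10 against -0.16 over all genes. The libraries did not overlap for 19 of the 43, all higher in bSCs, against 10.5% of all genes higher and 14.5% lower. Because highly expressed genes pass more often, the 22 members at or above the members' median level were also set beside all 503 genes at or above that level: 18 of the 22 rose (81.8%), and 35.8% of the 503.

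Monomer and turnover genes held 4 of the calls. Tmsb4x read 3728, 7617, 7453 and 6301 CPM in bSC replicates 1, 2, 3 and 5, all above the iSC values given above, a 5.67-fold difference (log2 2.504 ± 0.335, adjusted p = 0.000504). Pfn1 read 1077, 1539, 1694 and 1852 CPM in bSCs, 4.02-fold above iSCs (2.01 ± 0.30, adjusted p = 0.000955). Tmsb10, the second thymosin beta, was higher by 1.91 ± 0.39 and Cfl1, the severing protein cofilin 1, by 1.73 ± 0.33. Cap1 was the exception of this role, at -1.06 ± 0.52 (adjusted p = 0.208).

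Both actins rose. Actg1, the cytoplasmic gamma-actin whose promoter box is printed above, read 1021, 1024, 1202 and 1471 CPM in iSCs and 2673, 3544, 4091 and 5474 in bSCs, with no overlap (1.74 ± 0.28, adjusted p = 0.00136). Actb rose by 1.67 ± 0.30 (adjusted p = 0.00289). They shared 30 of their 50-base transcript words (1.29% of the Actb and 1.17% of the Actg1 words), so that few stretches of that length read the same in both.

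Of the 4 tropomyosins, which stabilise filaments and gate myosin, Tpm4, Tpm1 and Tpm3 rose. Tpm4 read 1343, 1372, 1749 and 2013 CPM in bSCs, each above every iSC library (1.97 ± 0.28, adjusted p = 0.000677). Tpm2, the form most tied to muscle, was at 0.90 ± 0.60 (adjusted p = 0.364). Of the 6 myosin II genes 2 rose, the light chains Myl12a and Myl6. Myl12a read 272, 238, 281 and 380 CPM in iSCs and 589, 798, 918 and 1191 in bSCs (1.58 ± 0.28, adjusted p = 0.00235). Myl9 was at -0.83 ± 0.44 (adjusted p = 0.248), and the heavy chains Myh9 and Myh10 at 1.23 ± 0.42 and 0.81 ± 0.46, neither of which passed.

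Among the ERM genes, Msn and Ezr rose and Rdx was at -0.05 ± 0.24. Msn, moesin, was nearly level across iSCs at 361, 400, 384 and 387 CPM, and read 1312, 1210, 1549 and 2085 in bSCs, a 4.02-fold difference with no overlap (2.01 ± 0.32, adjusted p = 0.00118). Tagln2, transgelin 2, had the largest fold change of the 43, at 8.04-fold (3.01 ± 0.56, adjusted p = 0.00326). It read 76.0, 50.003, 97.4 and 357 CPM in iSCs and 684, 865, 1428 and 1688 in bSCs, and iSC replicate 5 was the highest iSC library. Without that library the log2 fold change was 3.99 (adjusted p = 0.000132). Of the cross-linkers the filamin Flna and the non-muscle alpha-actinin Actn4 rose, of the Arp2/3 subunits Arpc2 and Arpc3, and the capping protein Capg rose as well. The 9 focal adhesion genes held 1 call, Ilk, the integrin-linked kinase (0.99 ± 0.25, adjusted p = 0.0179), although 8 of the 9 lay above 0.

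In the paired fit, with pools as a replicate block (3 pool numbers shared by iSCs and bSCs), 15 of the 21 still passed. Myl6, Ezr, Capg, Ilk, Arpc2 and Arpc3 did not (adjusted p = 0.0515 to 0.141), and Cap1 passed as lower in bSCs (-1.49 ± 0.35, adjusted p = 0.0378). In each of the 12 fits that left out 1 library 19 to 23 of the 43 passed. The share of all genes that passed in the paired fit and in these 12 fits is not given.

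**Figure D2:**
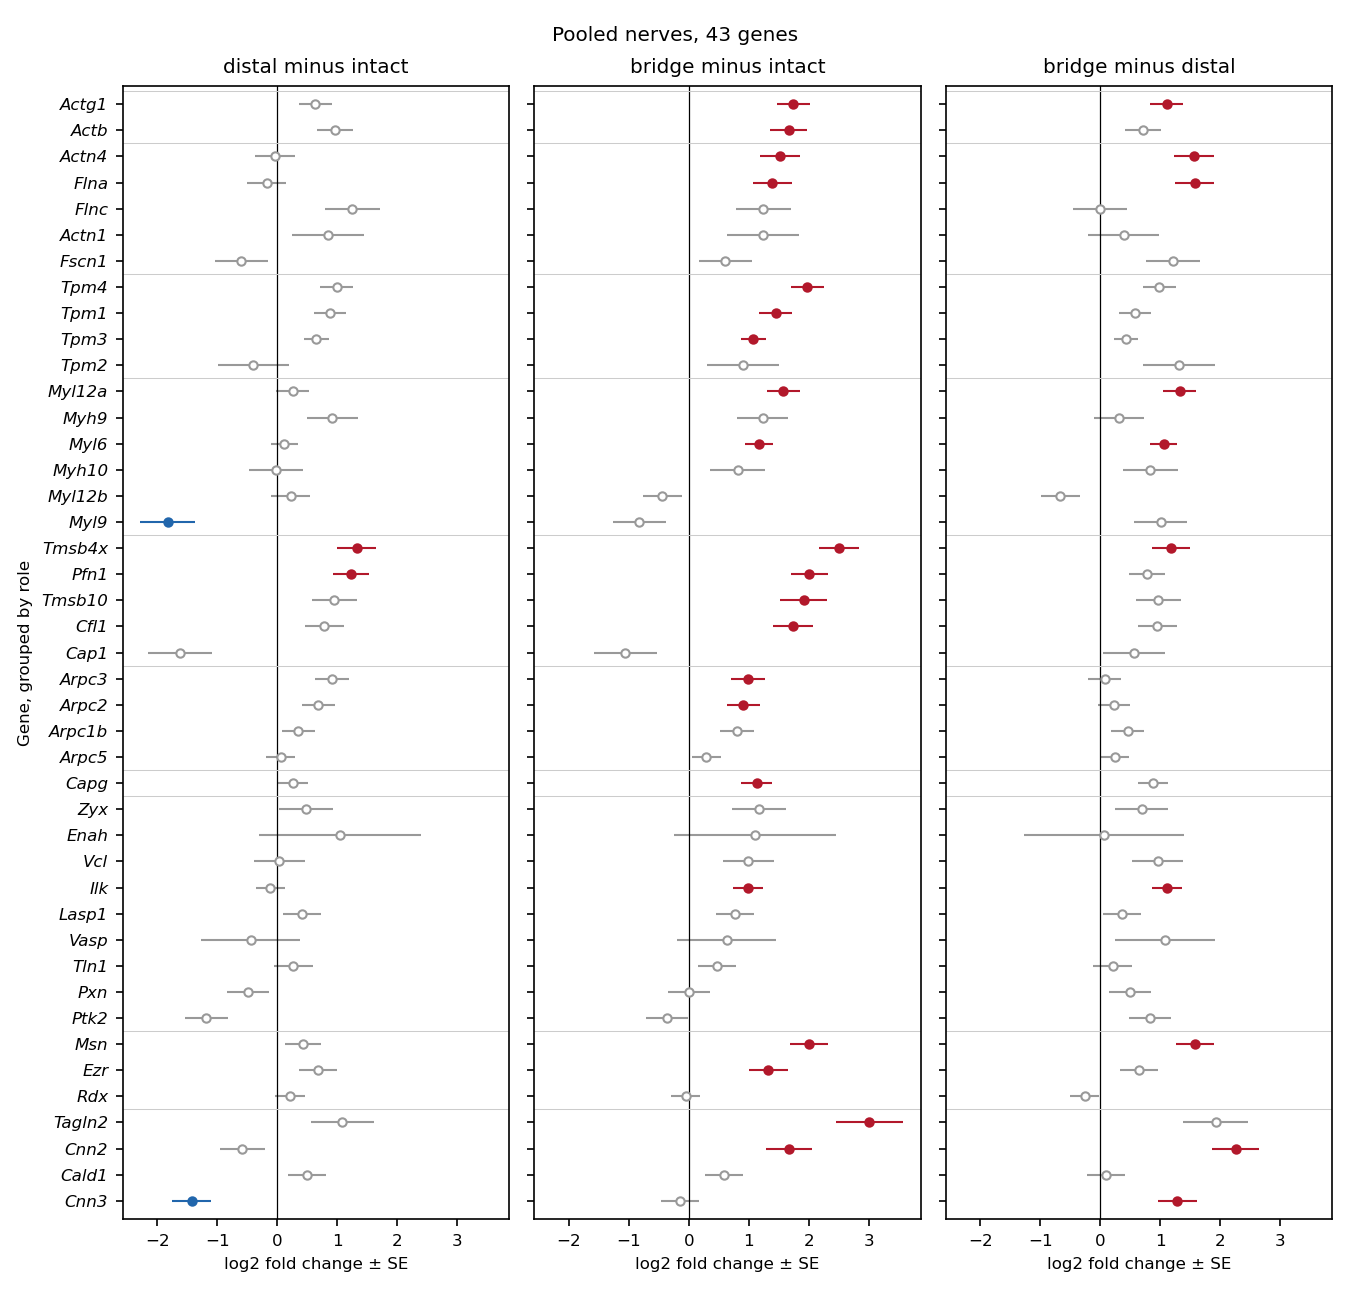
log2 fold change ± SE of each of the 43 genes (rows, grouped by role and divided by grey lines) in the pooled nerves, for distal minus intact, bridge minus intact and bridge minus distal. Filled red points rose and filled blue points fell at an adjusted p under 0.05, open grey points did not pass; the middle panel holds 21 red points and no blue one.

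Both comparisons above share the iSC libraries, and the bridge was also compared with the distal stump, which asks what distinguishes injured SCs in the new tissue from those in the old. Of the 43 genes, 10 were higher in bSCs and none lower, where 5.43% of all genes passed, 2.31% as higher and 3.11% as lower. Of the 43, 40 lay above 0, with a median log2 fold change of 0.82 against -0.07 over all genes. The libraries did not overlap for 13 genes, all higher in bSCs, against 6.77% of all genes higher and 8.62% lower. At or above the members' median level, 9 of 22 members were higher (40.9%), and 14.5% of the 503 genes.

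The largest difference was that of Cnn2, calponin 2, an actin-binding protein of non-muscle cells (chromosome 10, 79451329 to 79458807, mm9). It read 51.2, 75.4, 138 and 91.6 CPM in dSCs and 251, 283, 474 and 692 in bSCs, a 4.78-fold difference with no overlap (2.26 ± 0.39, adjusted p = 0.00828). In iSCs it read 122, 98.0, 117 and 197 CPM, so that 3 dSC libraries lay below the iSC range, 1 within it and all bSC libraries above it. Msn (chromosome X, 93291381 to 93363891, mm9) read 285, 568, 825 and 383 CPM in dSCs, 1.58 ± 0.31 below bSCs on the log2 scale (adjusted p = 0.0137). Its dSC and iSC libraries overlapped (0.43 ± 0.31, adjusted p = 0.595).

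Both cross-linkers that rose against iSCs were also higher than in dSCs. Flna, filamin A (chromosome X, 71468800 to 71495159, mm9), read 424, 236, 224 and 358 CPM in iSCs, 316, 212, 268 and 299 in dSCs and 573, 738, 569 and 1375 in bSCs. The iSC and dSC libraries overlapped and every bSC library lay above both (1.57 ± 0.33 against dSCs, adjusted p = 0.0171). Actn4 read 271, 209, 292 and 248 CPM in iSCs, 191, 141, 431 and 231 in dSCs and 612, 496, 822 and 999.6 in bSCs, again with the bridge apart (1.56 ± 0.34 against dSCs, adjusted p = 0.0201). Fscn1, the filopodial bundling protein, was at 1.21 ± 0.45 without passing (adjusted p = 0.126).

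Myl12a read 271, 362, 485 and 280 CPM in dSCs, below all bSC libraries (1.32 ± 0.28, adjusted p = 0.0180). Its neighbour on chromosome 17, Myl12b, which codes for a nearly identical regulatory light chain, went the other way without passing (-0.67 ± 0.33, adjusted p = 0.258). The pair shared 192 of their 50-base transcript words, 6.92% of those of Myl12a and 15.9% of those of Myl12b. Reads that align to both genes in these stretches may be counted for neither, and both values are uncertain to that extent. Myl6, the essential light chain, read 636, 381, 367 and 451 CPM in iSCs, 513, 513, 444 and 520 in dSCs and 798, 1056, 1006 and 1269 in bSCs (1.05 ± 0.23 against dSCs, adjusted p = 0.0217). Cnn3 read 1007, 986, 1235 and 1667 CPM in bSCs, above every dSC library (1.29 ± 0.32, adjusted p = 0.0360) and within the iSC range. Cnn2 and Cnn3, 2 calponins with no 50-base word in common, thus differed in their order: the bridge stood above both others for Cnn2, and the distal stump stood below both others for Cnn3.

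Actg1 read 1651, 1448, 1746 and 2471 CPM in dSCs (1.11 ± 0.28, adjusted p = 0.0354), Tmsb4x was higher in bSCs by 1.18 ± 0.32 (adjusted p = 0.0496) and Ilk by 1.11 ± 0.25 (adjusted p = 0.0243). Tagln2 read 297, 212, 399 and 322 CPM in dSCs, with no overlap with bSCs, and did not pass (1.92 ± 0.54, adjusted p = 0.0542). With DESeq2 it did (adjusted p = 0.00384), in a fit where 15 of the 43 passed and the share of all genes is not given. The Arp2/3 subunits gave the smallest differences by role, with a median of 0.23 and none passing.

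**Figure D3:**
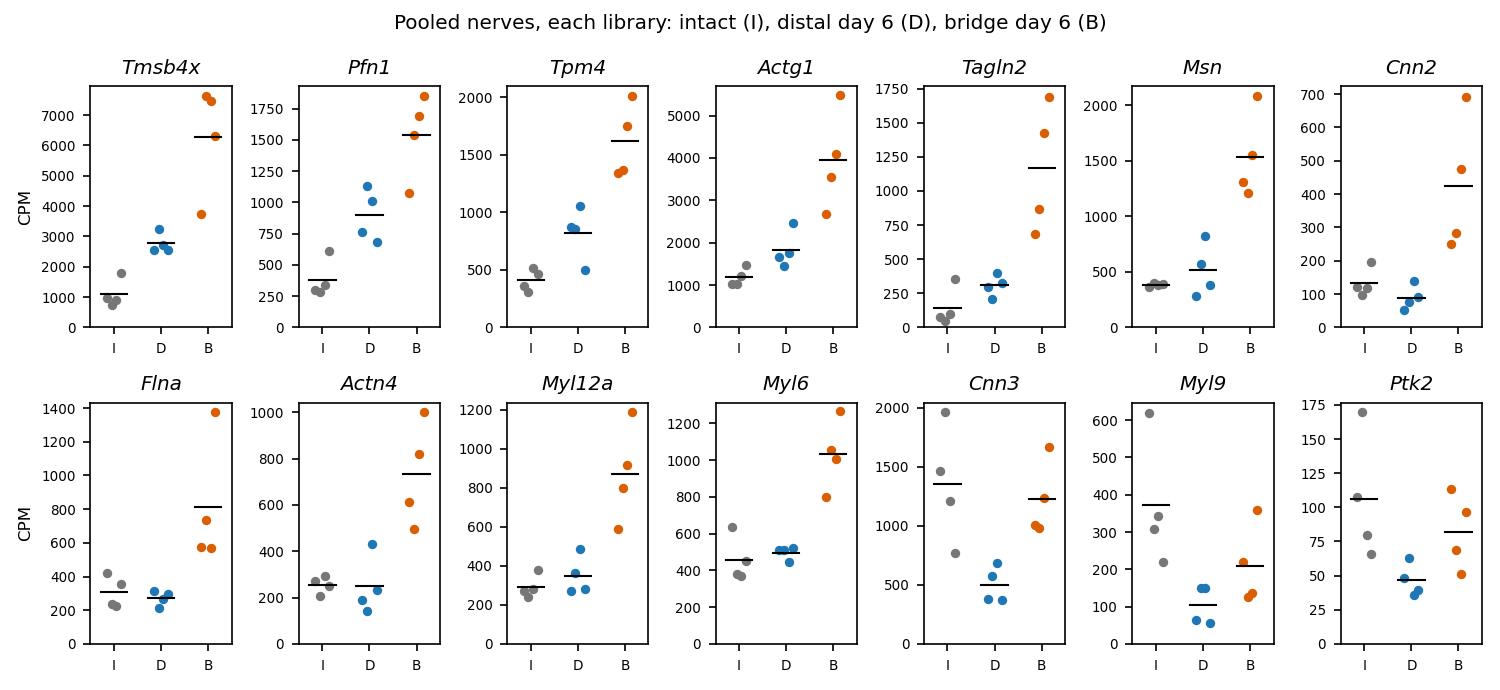
CPM (vertical axis, from 0) of 14 of the genes in each pooled library of the intact nerve (I, grey), distal stump (D, blue) and bridge (B, orange), with the group mean as a line. Cnn2, Flna, Actn4 and Myl12a show overlapping intact and distal libraries with all 4 bridge libraries above them, while Cnn3, Myl9 and Ptk2 have their lowest means in the distal stump.

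In the paired fit, with pools as a replicate block, 6 genes were higher in bSCs: Cnn2 (adjusted p = 0.0239), Actn4, Fscn1, Msn, Flna and Myl12a. Actg1 (0.0542), Myl6 (0.0736), Ilk (0.0839), Cnn3 (0.0900) and Tmsb4x (0.117) no longer passed as adjusted p. The count of 10 became 3 without dSC replicate 1, 4 without dSC replicate 2, dSC replicate 5 or bSC replicate 5, and 6 without bSC replicate 3. Cnn2 and Msn passed in all 12 of these fits, Flna in 11 and Myl12a in 10. For the paired fit and these 12 fits, the share of all genes that passed is not given.

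Markers of other cells differed between these groups too. Mural and smooth muscle markers summed to 270 to 367 CPM in dSCs and 579 to 1721 in bSCs, with bSC replicate 5 the highest, which was also the highest bSC library for Cnn2, Flna, Actn4 and Myl9. Of that list 8 of 13 lay above 0 (median 0.91): Tagln was higher in bSCs, Acta2 had a median of 296 CPM in bSCs and 39.8 in dSCs, and Actg2 ran from 22.6 to 56.3 CPM in bSCs and from 0 to 6.35 in dSCs. Myh11, the smooth muscle myosin that defines mature smooth muscle, was lower: it read 0 in 3 of 4 bSC libraries and 0.0859 CPM in the other, against 0.746 to 16.8 in dSCs and 12.0423 to 198 in iSCs. Endothelial markers lay above 0 for 8 of 11 (median 0.88), with Kdr called higher, and summed to 109 to 1069 CPM in bSCs and 170 to 533 in dSCs. Macrophage markers (17 of 17) and fibroblast markers (9 of 9) lay below 0. None of these markers' part in the differences was tested.

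Of the other genes of the pathway, taken from 3 lists of 69 genes, 15 rose and 6 fell in bSCs against iSCs. Over all genes 7.24% rose and 7.46% fell. Among 21 assembly genes 4 rose (Actr3, Arpc4, Brk1 and Cttn), among 23 filament proteins 5 rose and 3 fell, and among 25 adhesion adaptors 6 rose and 3 fell. Tes, a LIM protein of focal adhesions, rose by 5.68 on the log2 scale (adjusted p = 0.000443), and Gsn, the severing and capping protein gelsolin, fell by 4.44 (adjusted p = 0.00012). Against dSCs the bridge was higher for Pdlim1, Pdlim7, Tgfb1i1 and Capza1 and lower for Gsn, where 2.31% of all genes were higher and 3.11% lower. In dSCs against iSCs 6 of the 69 rose and 5 fell, where 2.63% of all genes rose and 2.69% fell.

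The single nerves followed the same genes over time, in other animals. On day 1 none of the 43 passed in dSCs against iSCs, where 11 of 7171 genes did (0.153%). At an unadjusted p under 0.05, 3 of the 43 (Actb, Pfn1 and Flna) were higher. The share of all genes at that unadjusted threshold is not given, so these 3 have no background beside them. DESeq2 also called none of the 43. Of the 43, 32 lay above 0 with a median of 0.40, which became 22 and 0.003 once the 3 libraries of low scaling factor were left out. Mural and smooth muscle markers summed to 3866 to 6765 CPM on day 1 and 1622 to 6204 in iSCs.

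Averaged over days 4 to 10, dSCs differed from iSCs in 3 of the 43 genes, where 9.61% of all genes passed, 3.19% as higher and 6.41% as lower: Flnc and Ezr rose and Myl9 fell. In bSCs 5 of the 43 passed, where 10.1% of all genes did, 3.63% as higher and 6.46% as lower: Flnc, Ezr, Cfl1 and Tagln2 rose and Myl9 fell. These shares of 6.98% and 11.6% were near the background. The median log2 fold change of the 43 was 0.27 in dSCs and 0.45 in bSCs, against -0.07 and -0.06 over all genes. Macrophage markers lay above 0 for 14 of 14 in both, with 11 higher in dSCs and 10 in bSCs past the threshold, and endothelial markers lay below 0 for 10 of 10 in both, with 3 and 1 past it. Their part in these differences was not tested.

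Flnc, the filamin best known from muscle, read 10.1, 4.33, 30.8, 28.2 and 25.6 CPM in iSC replicates 0, 1, 3, 4 and 5. Over days 4 to 10 it ran from 53.2 to 117 CPM in dSCs (median 74.5, n = 12) and from 37.2 to 120 in bSCs (median 68.6, n = 12), above all iSC libraries in both (1.89 ± 0.41, adjusted p = 0.00394, and 1.97 ± 0.42, adjusted p = 0.0025). Bridge and distal libraries of Flnc overlapped throughout (0.08 ± 0.28). Ezr read 28.7, 8.67, 43.7, 56.7 and 49.2 CPM in iSCs, 58.6 to 247 in dSCs (median 99.7) and 33.0 to 355 in bSCs (median 101), with 1.54 ± 0.47 (adjusted p = 0.0359) and 1.65 ± 0.48 (adjusted p = 0.0251). Myl9 spread widely in iSCs, at 72.6, 61.5, 234, 958 and 1935 CPM, and read 83.1 to 395 in dSCs (median 142) and 52.2 to 354 in bSCs (median 178). It fell by 1.84 ± 0.52 (adjusted p = 0.0218) and 1.97 ± 0.51 (adjusted p = 0.0126) on the log2 scale although the libraries overlapped. Without iSC replicate 5 neither passed (-0.87, adjusted p = 0.302, and -0.99, adjusted p = 0.224), and without iSC replicate 4 the difference in dSCs did not (-1.66, adjusted p = 0.0526). Of the mural and smooth muscle markers, Acta2 and Tagln also fell in both comparisons, and the directions of the rest of that list are not given. The whole list summed to 1622 to 6204 CPM in iSCs, and over days 4 to 10 to 672 to 3028 in dSCs and 729 to 2577 in bSCs. The part of these markers in the Myl9 difference was not tested.

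Cfl1 read 305, 331, 324, 632 and 748 CPM in iSCs and 355 to 2187 in bSCs (median 1070, 1.14 ± 0.30, adjusted p = 0.0118). Tagln2 read 275, 204, 240, 182 and 322 CPM in iSCs and 212 to 918 in bSCs (median 531, 1.12 ± 0.28, adjusted p = 0.00834). Without the 3 libraries of low scaling factor, 2 of which are the iSC libraries with the lowest Flnc and Ezr, 3 genes passed in dSCs (Flnc higher, Tpm2 and Myl9 lower) and 6 in bSCs (Actg1, Flnc, Fscn1, Pfn1 and Tagln2 higher and Myl9 lower). Ezr missed the threshold in both comparisons without iSC replicate 0 or iSC replicate 1 alone (adjusted p from 0.0737 to 0.107), and in dSCs without distal day 6 replicate 3, distal day 8 replicate 2 or distal day 10 replicate 0 (adjusted p from 0.0523 to 0.0593). With the 3 libraries of low scaling factor left out together it missed the threshold in both (adjusted p = 0.21 and 0.144), and so did Cfl1 in bSCs. The median over the 43 without those 3 libraries was -0.03 in dSCs and 0.20 in bSCs. The count for dSCs was 6 without iSC replicate 3 and 5 without distal day 2 replicate 0, distal day 4 replicate 1, bridge day 6 replicate 0 or bridge day 6 replicate 1, and that for bSCs was 8 without iSC replicate 3 or distal day 2 replicate 0. Shares of all genes in the fits that left out libraries are not given.

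**Figure D4:**
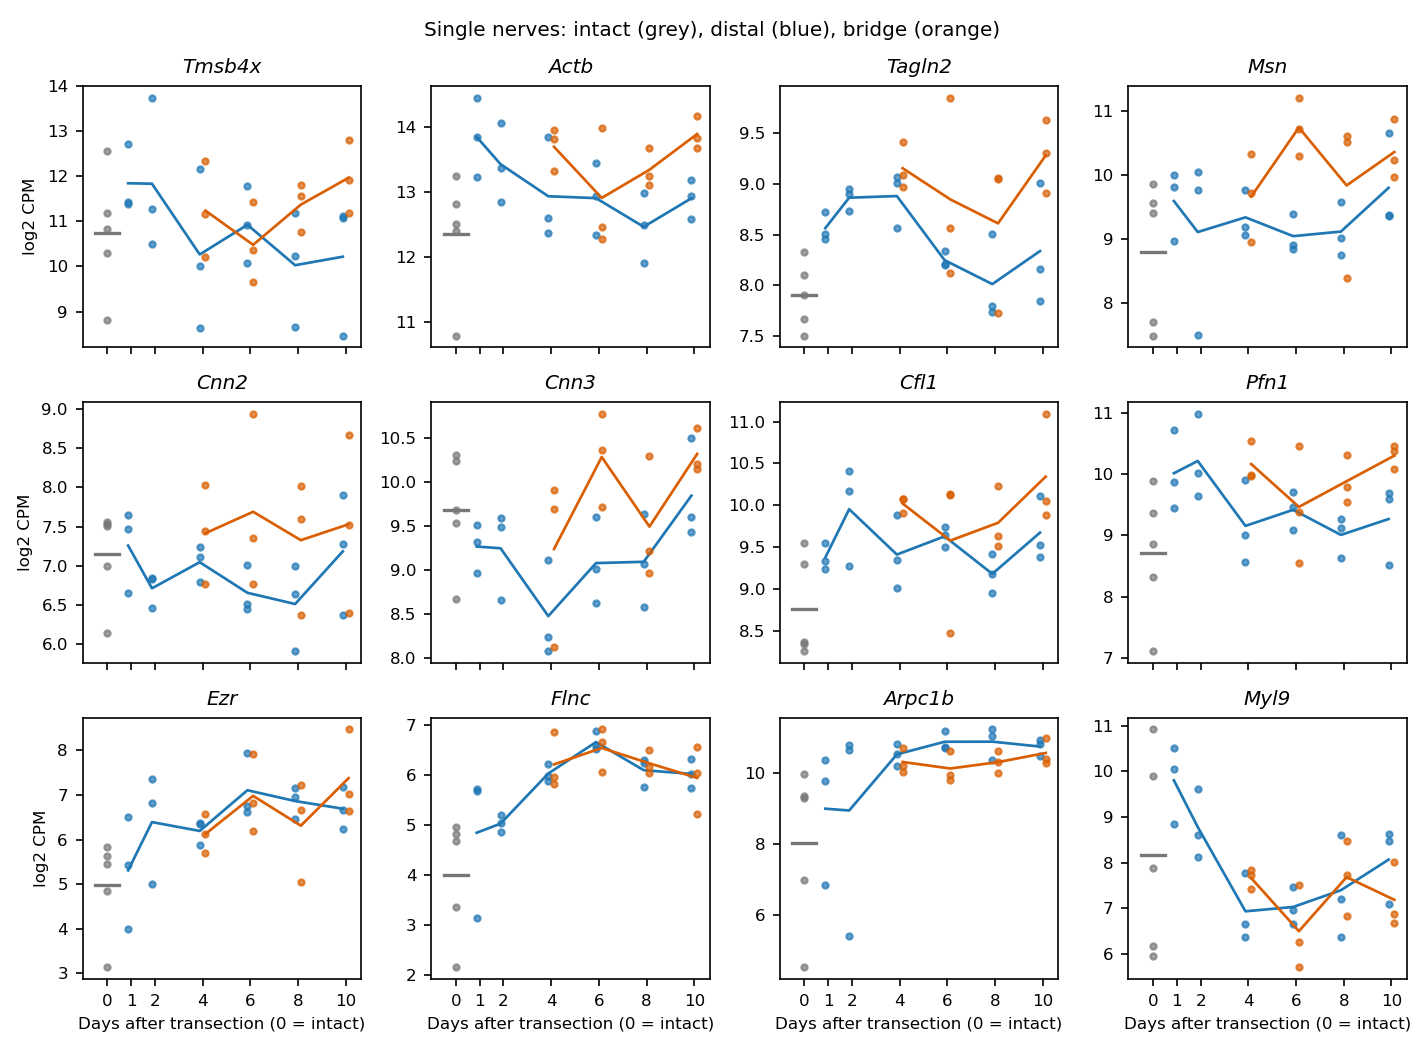
log2 CPM of 12 of the genes in the single nerves against days after transection, with intact libraries at 0 (grey), distal (blue) and bridge (orange) libraries as points and group means as lines. The injured libraries of Flnc on days 4 to 10 lie above all intact ones, and bridge means of Msn, Cnn2, Cnn3 and Tagln2 lie above the distal means on each of days 4, 6, 8 and 10.

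The bridge and distal libraries of days 4 to 10 asked again what the pooled bridge comparison asked, in separate animals. In the fit without pairing none of the 43 passed, where 8 of 7171 genes did, all lower in bSCs (0.112%). DESeq2 also called none. At an unadjusted p under 0.05, 8 of the 43 were higher and none lower, and the share of all genes at that threshold is not given. Of the 43, 40 lay above 0 (93.0%, and 55.4% of all genes), with a median of 0.29 against 0.05. Between the pooled nerves (day 6) and the single nerves (mean of days 4 to 10), 37 of the 43 (86.0%) were higher in the bridge in both, and 40.0% of the 7171 genes tested in both. In each experiment taken alone 93.0% of the 43 lay above 0, against 54.5% of these 7171 genes in the pooled and 55.4% in the single nerves. With such shares most of the 43 lie above 0 in both even without agreement gene by gene. With the single nerves of day 6 alone the count was 27 of 43 (62.8%, and 32.8% of all genes), and 67.4% of the 43 had the same sign in both experiments, near the 61.7% of all genes. The correlation of the pooled with the single-nerve difference was 0.61 across the 43 genes and 0.61 across all 7171, which is across genes and not replicates. Endothelial markers had values above 0, as the 43 genes did, for 8 of 11 in the pooled and 9 of 10 in the single nerves (medians 0.88 and 0.60), and mural and smooth muscle markers for 8 of 13 and 5 of 8 (medians 0.91 and 0.18). Fibroblast markers were below 0 for 9 of 9 and 7 of 8, and macrophage markers for 17 of 17 and 8 of 14. Their part in the differences was not tested.

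**Figure D5:**
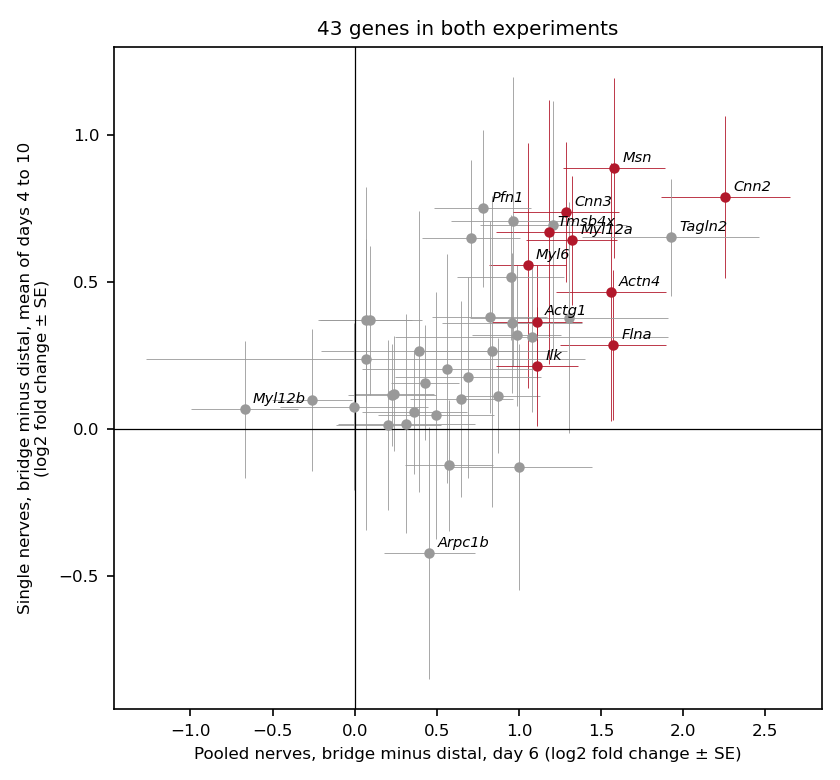
Bridge minus distal log2 fold change ± SE of the 43 genes in the pooled nerves (horizontal, day 6) and in the single nerves (vertical, mean of days 4 to 10). Red points passed in the pooled nerves; 37 of the 43 genes lie above 0 on both axes, Msn and Cnn2 among them.

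The 6 genes of smallest p were Tagln2 (0.65 ± 0.20), Cnn3 (0.74 ± 0.24), Myl12a (0.64 ± 0.22), Msn (0.89 ± 0.31), Cnn2 (0.79 ± 0.28) and Pfn1 (0.75 ± 0.27), with adjusted p from 0.266 to 0.389. Msn read 866, 534 and 583 CPM in dSCs on day 4, 478, 456 and 672 on day 6, 431, 765 and 515 on day 8 and 1619, 665 and 655 on day 10. In bSCs it read 1280, 493 and 839 CPM on day 4, 1686, 2356 and 1257 on day 6, 1457, 1552 and 337 on day 8 and 1203, 997 and 1879 on day 10. Only on day 6 did the bridge and distal libraries of Msn not overlap. Cnn2 read 151, 110 and 138 CPM in dSCs on day 4, 128, 91.6 and 87.1 on day 6, 60.0, 99.6 and 127 on day 8 and 240, 155 and 82.7 on day 10. In bSCs it read 175, 109 and 261 CPM on day 4, 491, 164 and 109 on day 6, 194, 258 and 82.5 on day 8 and 183, 84.6 and 407 on day 10. Its libraries overlapped on every day, with at least 1 low bSC library each time.

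Cnn3 ran from 270 to 1447 CPM in dSCs (median 548, n = 12) and from 279 to 1760 in bSCs (median 1049, n = 12). Myl12a ran from 152 to 425 CPM in dSCs and from 128 to 726 in bSCs, Pfn1 from 367 to 958 and from 375 to 1497, and Tagln2 from 213 to 537 and from 212 to 918. For each of these 4 genes the lowest bSC library was thus at or near the lowest dSC library, and the upper end was higher in bSCs.

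The labels give the same animal for 10 bridge and distal pairs. With the animal as a replicate block 2 of the 43 passed, Cnn2 (1.09 ± 0.28, adjusted p = 0.0418) and Msn (1.02 ± 0.27, adjusted p = 0.0434), where 6.41% of all genes passed and 0.628% were higher. Both were also the members that passed in every pooled fit that left out 1 library. Msn was higher in bSCs in 8 of the 10 pairs (mean log2 difference 0.97 ± 0.92, SD) and Cnn2 in 8 (0.89 ± 0.93). Tagln2 was just over the threshold (0.76 ± 0.21, adjusted p = 0.0537). An 11th pair, whose bridge library has a title and an animal label that conflict, took both calls away. None of the 43 passed in 11 pairs, where 0.725% of all genes passed and 0.0558% were higher. Of the 43 genes, 15 were higher in bSCs in at least 8 of 10 pairs (34.9%), and 12.4% of all genes.

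Arpc1b, a subunit of the Arp2/3 complex, was the member with the lowest bridge minus distal value in the single nerves (-0.42 ± 0.43), lower in bSCs in 9 of 10 pairs, while the pooled nerves gave 0.45 ± 0.28. Neither passed. Over time, the bridge minus distal difference did not vary among days 4, 6, 8 and 10 for any of the 43 beyond the test's threshold, nor for any of the 7171 genes (0.0%) by edgeR without pairing; no member had an unadjusted p under 0.05 and DESeq2 called no member. Between day 10 and day 1 in dSCs none of the 43 passed either, where 2 of 7171 genes did (0.0279%), and DESeq2 called none. At an unadjusted p under 0.05, 2 members were lower, and the share of all genes at that threshold is not given. Tpm2 had the lowest of these values, at -2.62 ± 0.83 (adjusted p = 0.64), with Myl6 and Myl9 next at -1.96 ± 0.86 and -1.74 ± 0.86; all 3 are also expressed in smooth muscle, and mural markers summed to 1279 to 2602 CPM on day 10.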

How the data were processed

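Raw counts per gene were deposited by the authors, made per the labels and the study's methods from Smart-seq2 reads with TopHat2 2.0.11 on mm9 and HTSeq. Lanes of a library were summed, and the 5 HTSeq category rows (57.8 to 64.9% of all counts in pooled and 55.7 to 63.6% in single-nerve libraries) and 92 ERCC spike-ins were left out. Counts were tested with edgeR 4.0.16 (quasi-likelihood, TMM; R 4.3.3), in 1 fit per experiment. Genes were kept by filterByExpr in the pooled libraries (13751 genes) and at 100 or more counts in 85% or more of the single-nerve libraries (7171 genes), with Benjamini-Hochberg adjustment over all of them and a threshold of 0.05. edgeR gives no SE: it is the log2 fold change divided by the square root of F. The test was checked on simulated data. DESeq2 1.42.0, other scalings, filters, sample sets and blocks, and leaving out each library were tried.

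Values per library were given for genes among the 6 of smallest p in any pooled comparison or in the single-nerve bridge against distal comparison; Flnc, Ezr, Cfl1 and the Myl9 values in single nerves were given after their values were seen, as was Arpc1b. The genes and lists were chosen with earlier results of these data known. Libraries were paired by the animal number that the labels give: same-animal deviations correlated at a mean of 0.147 over 11 single-nerve pairs and -0.01 over 10 pooled pairs. p-values measure the spread between libraries. Rat libraries were not used, and 1 further list of signalling genes is not reported here. Gene positions are those of mm9, and promoter stretches those of RefSeq GRCm38.p6. CPM was computed here from the counts.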

Additional observations from a re-analysis of the deposited data

Results flagged for a closer look

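Myl6 read 444 CPM in dSC replicate 3 of the pooled nerves, while the other 3 dSC libraries lay between 513 and 520 CPM. Its gap to the nearest of them was a large part of the range of the 4 libraries (Dixon's test). This was 1 of 56 groups searched over 14 of the genes, and chance flags about 1 group in 20.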

How the results depend on the processing

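The number of the 43 genes past the threshold in pooled dSCs against iSCs moved from 4 to 11 with DESeq2. It was 8 with the number of lanes summed for a library (1 or 2) as a covariate. In the paired fit, with pools as a replicate block, it was 1. Pooled bSCs against dSCs gave 6 under that block and 15 with DESeq2 in place of 10, and bSCs against iSCs gave 16 and 23 in place of 21. In the single nerves DESeq2 gave 6 in dSCs and 10 in bSCs against iSCs on days 4 to 10, and a fit of only the groups compared gave 2 in bSCs. With the animal as a replicate block, bSCs against dSCs gave 2 over 10 pairs in place of 0. The cause was not tested in any of these. Apart from the 10 pairs, no share of all genes is given for these fits or for those below that leave out 1 library. Whether the count of the 43 moved along with that of all genes is thus not shown.

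With 1 library left out, the count ran from 0 to 11 in pooled dSCs against iSCs, from 19 to 23 in bSCs against iSCs and from 3 to 12 in bSCs against dSCs. In the single nerves on days 4 to 10 the lowest and highest counts were 2 and 6 for dSCs against iSCs, and 4 and 8 for bSCs, and the count was 0 throughout in the other 4 comparisons. With 1 library left out, no log2 fold change of the genes called in the pooled nerves changed sign. In the other fits this was checked only for the called genes given library by library, and none of these changed sign. The pool block moved the median of all genes by over 0.1 in bSCs against iSCs, to -0.30. With 3 or 4 libraries a group, small differences were not detectable.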
